A study of Homo sapiens with 8 samples.

Results

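The named long non-coding RNAs of MOLM-13 cells, a cell line established from acute myeloid leukemia with a fusion of KMT2A to AF9, were followed across 4 treatment groups. Members were chosen by symbol and by their summed level: the rows of the count table whose symbol ends in -AS and a number (antisense), or begins with LINC and a digit (intergenic) or SNHG and a digit (small nucleolar RNA host, snoRNA host), and whose counts summed over the 8 libraries reached 160, a mean of 20 per library. Of 26475 rows in all, 1880 had such a name, 1127 of those had no count, and 226 reached the sum: 149 antisense, 61 intergenic and 16 snoRNA host transcripts. The rule used the summed level and not the treatments, although 9 members reached it only through 1 group, and 195 averaged at least 20 counts in every group. Just inside the limit were SNAI3-AS1 with 160 counts, UBAC2-AS1 with 160.5 and KTN1-AS1 with 161, and just outside were SDCBP2-AS1 with 155, DLEU7-AS1 with 154 and HOXA-AS3 with 149.1.

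The 4 groups were DMSO, the vehicle control; VTP50469, which blocks the binding of Menin to KMT2A; WM1119, written WM119 in the labels, an inhibitor of the acetyltransferase KAT6A; and the 2 inhibitors together. The labels give the genotype of all cells as wild type, and each group held 2 bulk RNA libraries with 18092906 to 23634468 counts. The sources used here give neither dose nor duration, nor whether the 2 libraries of a group were separate cultures, so p-values measure only the spread between these libraries, which may be technical. The myeloid and leukemic genes CD33, FLT3, SPI1, HOXA9 and MEIS1 were detected in every library, whereas the T cell, erythroid and epithelial genes CD3E, HBB, EPCAM and KRT19 were at 0 counts in all of them. Among other markers of unrelated cells, CD3D was at 1.19 to 4.59 CPM (counts per 1000000 counts of the library), and MS4A1 and COL1A1 were at most at 0.808 CPM. In bulk RNA a change in the share of cells and a change in RNA per cell cannot be told apart. The second combination library stood apart: 20.4% of all genes tested differed more than 2-fold between the 2 combination libraries, against 0.661%, 0.637% and 1.39% in the DMSO, VTP50469 and WM1119 pairs. Of the 226 members, 35 differed more than 2-fold between the combination libraries, and 1, 3 and 4 in the other pairs.

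Long non-coding RNAs are transcribed by RNA polymerase II and usually spliced, but are not translated into a long protein. An antisense transcript is named for the protein-coding gene on the opposite strand, which it may overlap or face from a shared promoter region. An intergenic one lies between coding genes. A snoRNA host carries small nucleolar RNAs in its introns. These guide the modification of ribosomal RNA, while the spliced exons of many hosts are degraded when ribosomes engage them. Many hosts begin with a C followed by a run of pyrimidines, the terminal oligopyrimidine start that is also found on the messages of ribosomal proteins and couples their translation to growth signals. In leukemias with a KMT2A fusion, Menin tethers the fusion complex to chromatin, and its loss lowers the leukemic program and lets myeloid genes rise.

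The symbols came from an older annotation. In GENCODE 44, 212 members were found, of which 197 were typed as lncRNA, 10 as protein-coding and 5 as pseudogenes. Among the antisense members, 106 overlapped the gene they are named for and 32 lay head to head with it. HNRNPU-AS1 was matched to the entry of HNRNPU itself, TNRC6C-AS1 to that of TMC6 and LINC00341 to that of SYNE3. Each of these genes has its own row, so these members had no position, type or length of their own. TNRC6C-AS1 is counted among the overlapping members by the position of TMC6. For 10 no relation was given, because the member or the gene it is named for was not placed or had no row. The ending -DT, for divergent transcript, is now carried by 25 antisense members. A snoRNA gene lay inside 13 of the 16 snoRNA hosts, inside 4 antisense members and inside 0 intergenic members. The members were short: the median transcript was 1785 bases for antisense, 1798 for intergenic and 1568.5 for snoRNA host members, against 3217 for all genes tested.

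Sequences were available for 155 members typed as lncRNA, as 300 bases around the gene start in RefSeq (build GRCh38.p14), 250 before it and 50 from it on. Those of PSMB8-AS1 and LINC00996, which rose with the combination, are shown because they carry letters bound by myeloid or interferon factors near the start. Of the 12 called transcripts, 4 had a sequence and 3 of the 4 carried GAGGAA, the third being ZNF561-AS1 at position -141. Capitals mark GAGGAA, the core bound by the myeloid factor PU.1 (as GAGGAAGT in PSMB8-AS1), and the core of an interferon response element, a pair of GAAA repeats with 2 bases between. The PSMB8-AS1 window is chr6:32843836-32844135 on the plus strand, and that of LINC00996 is chr7:150433404-150433703 on the plus strand.
PSMB8-AS1: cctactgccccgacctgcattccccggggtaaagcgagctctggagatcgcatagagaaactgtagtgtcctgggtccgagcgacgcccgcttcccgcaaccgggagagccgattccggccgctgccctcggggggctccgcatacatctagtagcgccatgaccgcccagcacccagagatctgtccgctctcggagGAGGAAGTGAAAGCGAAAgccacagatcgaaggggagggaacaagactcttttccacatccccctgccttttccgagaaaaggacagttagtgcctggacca
LINC00996: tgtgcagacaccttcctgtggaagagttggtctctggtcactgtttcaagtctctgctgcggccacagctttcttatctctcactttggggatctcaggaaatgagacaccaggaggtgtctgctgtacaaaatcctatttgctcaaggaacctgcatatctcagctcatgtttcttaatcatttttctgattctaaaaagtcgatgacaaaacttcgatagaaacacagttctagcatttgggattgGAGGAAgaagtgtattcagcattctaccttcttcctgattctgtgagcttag
In PSMB8-AS1 the 2 motifs abut, at positions -52 and -44 from the start, and in LINC00996 GAGGAA lies at -2. Searched on both strands, GAGGAA is common, in 27.6% of 27305 promoters and 30.3% of the members' promoters. The longer GAGGAAGT was in 2.54% of all promoters and 2.58% of the members', and the interferon response element core in 3.65% and 3.23%. The coding gene PSMB9 starts 58 bases from PSMB8-AS1 on the same strand, so the letters in that window also lie near the start of PSMB9. The matches are descriptions of letters, not of binding.

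The question of the design was whether the 2 inhibitors together change expression beyond either one. With the combination, 9 of the 226 members rose and 3 fell against DMSO (edgeR quasi-likelihood test, Benjamini-Hochberg adjusted p under 0.05), which is 5.31% of the members against 9.29% of all 12401 genes tested. Called higher were 5.85% and called lower 3.44% of all genes. At an unadjusted p under 0.05, 43 members were higher and 17 lower, against 30.3% of all genes in either direction, and DESeq2 called 31 members. The 9 higher include ITGB2-AS1, a member only through its level in the combination. The fitted log2 fold change was above 0 for 158 members and below 0 for 68, with a median of 0.32 against 0.010 over all genes. That median depended on the second combination library: it was 0.096 without it and 0.40 without the first. With a correction for transcript length it was 0.14. For antisense members the median of 0.28 became 0.085 with that correction and 0.11 without the second combination library, and for intergenic members 0.36 became 0.32 and 0.16. Both combination libraries lay above both DMSO libraries for 72 members and below for 36, where the same was seen for 24.8% and 34.5% of all genes. The calls depended on the libraries fitted: 0 members were called when only DMSO and the combination were fitted, and 0 when either DMSO library was left out. Without 1 VTP50469 library 3 were called, PSMB8-AS1, ITGB2-AS1 and MBNL1-AS1, and without 1 WM1119 library the first 2 of these. A fit without 1 combination library assumes that the remaining one varies like the other groups, so its calls are not counted here. The share of all genes called is given only for the main edgeR fit. Counts of members called by DESeq2 or in other fits, here and below, have no such share beside them.

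**Figure D1:**
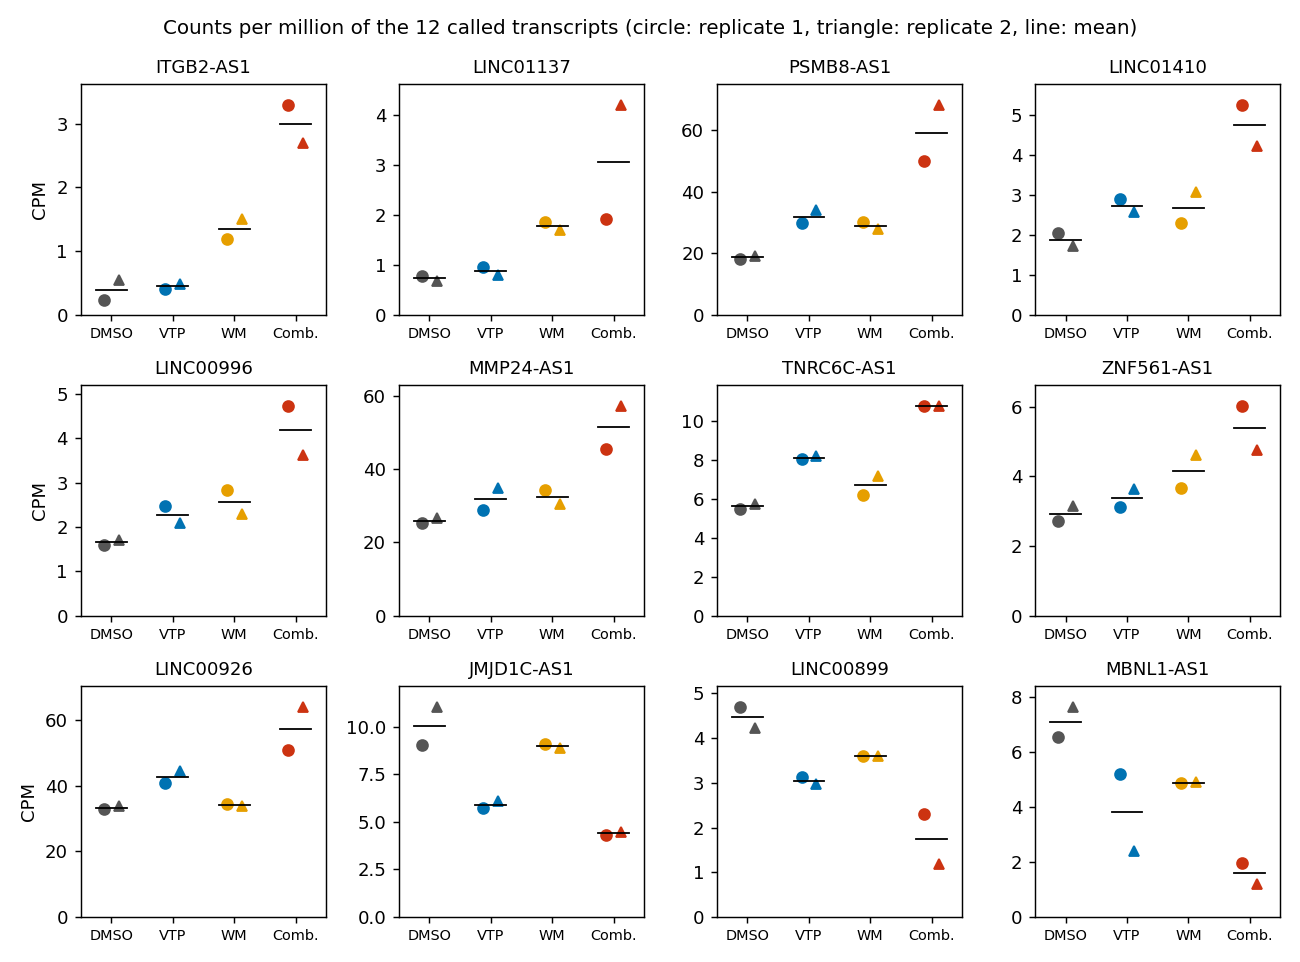
CPM (y axis from 0) of the 12 called transcripts in each library, by group on the x axis (VTP is VTP50469, WM is WM1119, Comb. is the combination); circles are replicate 1, triangles replicate 2 and lines group means of 2. In all 12 panels both combination libraries lie beyond the 6 other libraries. The 12 were chosen by their adjusted p in these same libraries, so this order is in part set by the choice. Its share over all genes is not given.

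PSMB8-AS1 had the lowest p of the members. It lies at chr6:32844078-32846500 (hg38, plus strand) in the major histocompatibility region, opposite PSMB8, an interferon-inducible subunit of the immunoproteasome that cuts peptides for presentation. Its level was 18.2 and 19.01 CPM in the DMSO libraries, 29.7 and 33.9 with VTP50469, 29.98 and 27.8 with WM1119, and 49.9 and 68.3 with the combination. All 6 treated libraries were above both DMSO libraries, and the 2 combination libraries were highest. The log2 fold change of the combination against DMSO was 1.80 ± 0.24 (SE, n = 2 and 2), adjusted p = 0.00867 by edgeR. PSMB8 itself was at 118 and 135 CPM in DMSO and 200.3 and 306 CPM in the combination, a log2 difference of 1.14 ± 0.29 with an adjusted p of 0.055 that missed the threshold. PSMB9, another immunoproteasome subunit, starts 58 bases from PSMB8-AS1 on the same strand, and it rose by a log2 of 1.97 ± 0.34 (adjusted p = 0.0196 by edgeR), from 30.3 and 30.1 CPM to 79.4 and 134. TAP1, read as a further neighbor, was at 50.4 and 52.1 CPM in DMSO and 70.2 and 75.2 in the combination. Its log2 of 0.63 ± 0.16 did not pass (adjusted p = 0.0585 by edgeR). PSMB8-AS1 had a fractional count in all 8 libraries. Neither its sum with PSMB8 nor its sum with PSMB8 and PSMB9 was whole in any. In the first DMSO library, for example, these 3 rows added up to 3016.33. Its reads were therefore shared in part with a row other than these, which was not traced.

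ITGB2-AS1, at chr21:44921051-44929680 on the plus strand, had the largest fitted rise among the called members. It overlaps ITGB2, the beta-2 integrin chain CD18 that partners with CD11 proteins on mature myeloid cells. Its counts were 4 and 11 in DMSO, 8 and 11 with VTP50469, 28 and 31 with WM1119, and 76 and 50 with the combination, so its counts were low without WM1119. The 6 libraries without the combination held 93 counts in all, a mean of 15.5, so it is 1 of the 9 members that reached the limit only through 1 group, the one in which it is high, and its difference from DMSO is not independent of the choice of members. Both WM1119 libraries were above every DMSO and VTP50469 library, and both combination libraries were above those. The log2 fold change was 3.06 ± 0.48 against DMSO (adjusted p = 0.0137 by edgeR). Against VTP50469 alone the log2 difference was 2.83 ± 0.46 with an adjusted p of 0.067 by edgeR, which missed the threshold for adjusted values. ITGB2 rose too, from 360 and 347 CPM in DMSO to 799 and 846 in the combination, a log2 of 1.34 ± 0.15 (adjusted p = 0.00459 by edgeR). For ITGB2 the VTP50469 libraries held 545 and 557 CPM and the WM1119 libraries 479 and 467, so that the order of the single inhibitors in the coding gene was the reverse of that in its antisense transcript. This reversal was not tested.

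The other antisense members that rose were TNRC6C-AS1, MMP24-AS1 and ZNF561-AS1. TNRC6C-AS1 was at 5.47 and 5.74 CPM in DMSO, 8.02 and 8.18 with VTP50469, 6.20 and 7.18 with WM1119, and 10.8 and 10.8 with the combination, with a log2 of 1.06 ± 0.18 (adjusted p = 0.0188 by edgeR). In current annotation this symbol is a synonym of TMC6, which has its own row and rose by 1.02 ± 0.22 (adjusted p = 0.036 by edgeR), whereas TNRC6C, a component of microRNA silencing complexes, had a log2 of -0.19 ± 0.26 that did not pass. MMP24-AS1 went from 25.1 and 26.6 CPM to 45.5 and 57.2, a log2 of 1.12 ± 0.22 (adjusted p = 0.0293 by edgeR); both groups of single inhibitors lay between, at 28.7 to 34.8 CPM. The row is now named MMP24OS and typed as protein-coding, and MMP24 itself had at most 7.58 counts in any library and was not tested. ZNF561-AS1, chosen for mention after its values were seen, faces the zinc finger gene ZNF561 head to head with 13 bases between the starts. It was at 2.71 and 3.16 CPM in DMSO and 6.03 and 4.76 in the combination, a log2 of 0.98 with an adjusted p of 0.0498 (edgeR), and it lost its call with library size scaling, without a count filter and with the correction for transcript length.

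Both antisense members that fell are named for genes bound by KMT2A fusions in leukemia, which is background. Binding was not examined here, and its part in the fall was not tested. JMJD1C-AS1, at chr10:63465229-63466563 on the plus strand, overlaps JMJD1C, a demethylase-family protein that leukemia cells need. Its level was 9.05 and 11.04 CPM in DMSO, 5.71 and 6.09 with VTP50469, 9.08 and 8.87 with WM1119, and 4.32 and 4.49 with the combination. The VTP50469 and combination libraries were thus low, and the WM1119 libraries overlapped DMSO. The log2 fold change was -1.07 ± 0.20 (adjusted p = 0.0256 by edgeR). MBNL1-AS1, at chr3:152245262-152269590 on the minus strand, overlaps the splicing factor gene MBNL1. It was at 6.55 and 7.64 CPM in DMSO, 5.21 and 2.39 with VTP50469, 4.87 and 4.91 with WM1119, and 1.98 and 1.18 with the combination, with a log2 of -2.05 ± 0.40 (adjusted p = 0.0273 by edgeR). Every treated library was below both DMSO libraries. The coding partners had lower fitted levels in the combination without passing the test: JMJD1C had a log2 of -1.65 ± 0.52 (adjusted p = 0.094) and MBNL1 of -0.75 ± 0.26 (adjusted p = 0.115). In each of these genes the second combination library was far below the first, at 42.9 against 161 CPM for JMJD1C and 264 against 538 for MBNL1.

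Of the 61 intergenic members 8.2% were called with the combination, against 9.29% of all genes. Those called were 4 that rose and 1 that fell. LINC00926 was the most abundant of them, at 32.7 and 33.7 CPM in DMSO, 40.7 and 44.4 with VTP50469, 34.4 and 33.9 with WM1119 and 50.8 and 63.9 with the combination (log2 0.92 ± 0.20, adjusted p = 0.0379 by edgeR). The 2 WM1119 values exceeded the higher DMSO value by under 1 CPM. LINC00996, which lies in the GIMAP gene cluster of immune GTPases at chr7:150433654-150448141 on the plus strand, went from 1.60 and 1.70 CPM to 4.73 and 3.62, through 2.08 to 2.83 with the single inhibitors (log2 1.44 ± 0.28, adjusted p = 0.0273 by edgeR). LINC01410, at chr9:62801461-62813486, went from 2.05 and 1.70 CPM to 5.25 and 4.22 (log2 1.44 ± 0.27, adjusted p = 0.0241 by edgeR), with the single inhibitors at 2.28 to 3.06.
LINC01137, not placed in GENCODE 44, was at 0.774 and 0.681 CPM in DMSO, 0.960 and 0.796 with VTP50469, 1.86 and 1.70 with WM1119, and 1.91 and 4.22 with the combination (log2 2.22 ± 0.52, adjusted p = 0.0463 by edgeR). The first combination library was thus barely above the higher WM1119 library, and without the second combination library the log2 was 1.40. LINC00899, at chr22:46039907-46044853 on the minus strand, fell from 4.70 and 4.23 CPM to 2.30 and 1.19, with 3.13 and 2.96 under VTP50469 and 3.60 and 3.60 under WM1119 (log2 -1.25 ± 0.30, adjusted p = 0.0481 by edgeR). Without the second combination library its log2 was -0.94. No called intergenic member kept its call with a replicate block, or when 1 DMSO, VTP50469 or WM1119 library was left out.

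LINC01138 stood just outside the threshold with the combination (log2 1.29 ± 0.31, adjusted p = 0.0501 by edgeR) and had another pattern. It was at 1.23 and 1.32 CPM in DMSO, 3.54 and 3.42 with VTP50469, 1.95 and 1.47 with WM1119, and 3.46 and 2.32 with the combination. The VTP50469 libraries were therefore as high as the higher combination library or nearly so. Its log2 with VTP50469 alone was 1.46 ± 0.31, with an adjusted p of 0.208 by edgeR, and it was the 1 member that DESeq2 called in that comparison.

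**Figure D2:**
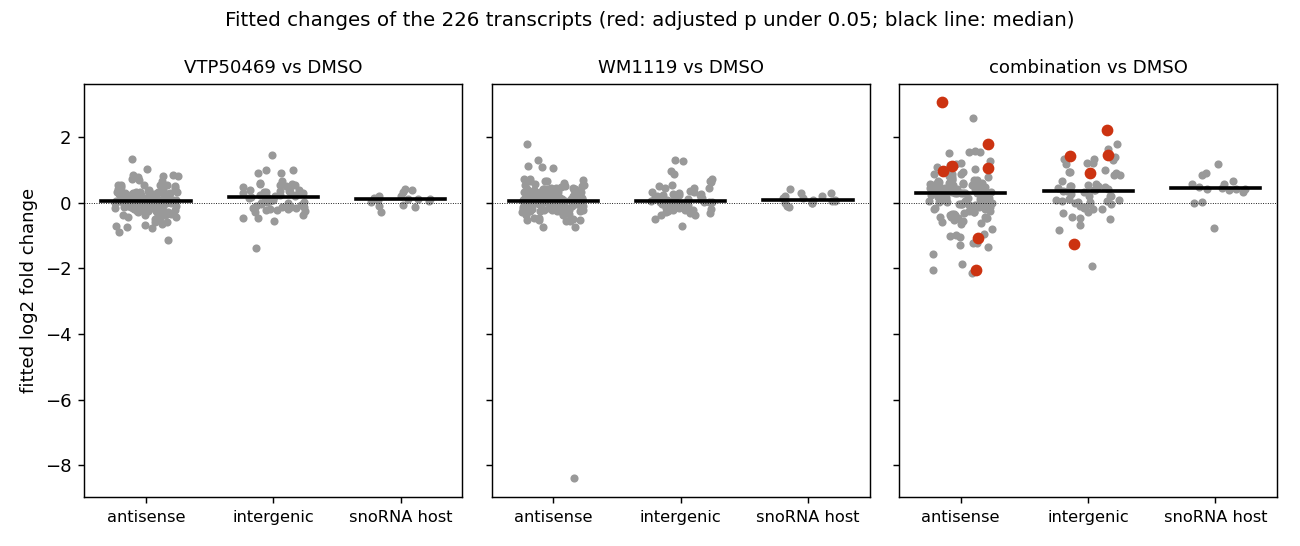
Fitted log2 fold change against DMSO (y axis) of each of the 226 transcripts by class, for VTP50469, WM1119 and the combination; black lines are class medians and red points the 12 called transcripts. With the combination the medians are 0.28 for antisense, 0.36 for intergenic and 0.44 for snoRNA host members; the point near -8.4 with WM1119 is SNRK-AS1, which had 0 counts in both WM1119 libraries.

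In the main fit neither inhibitor alone changed a member past the threshold. With VTP50469, 0 members were called by edgeR, against 0.169% of all genes, with 7 higher and 4 lower at an unadjusted p under 0.05 (6.75% of all genes in either direction) and 1 call by DESeq2. A fit of the VTP50469 and DMSO libraries alone called 12. The main fit takes the spread of a gene from all groups, including the combination pair that stood apart. Its 0 calls for a single inhibitor therefore do not show an absence of change. With WM1119, 0 members and 0.0% of all genes were called by edgeR, with 6 members higher and 2 lower at an unadjusted p under 0.05 (4.94% of all genes) and 1 call by DESeq2. The medians of the members were 0.073 and 0.058, against -0.0042 and 0.0085 over all genes. Both VTP50469 libraries lay above both DMSO libraries for 60 members and below for 34, beside 26.5% and 28.4% of all genes. For WM1119 these were 53 and 28 members, beside 23.5% and 21.5%. These comparisons share the DMSO libraries.

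The combination was also set against each inhibitor. Against VTP50469, edgeR called 0 members, beside 0.395% of all genes, with 36 members (and 17.9% of all genes) at an unadjusted p under 0.05 and 5 calls by DESeq2. Against WM1119, edgeR called 0 members, beside 1.43% of all genes, with 39 (and 16.7% of all genes) at an unadjusted p under 0.05 and 13 calls by DESeq2. The interaction, the departure of the combination from the sum of both single log2 changes, was called for 0 members and 0.0% of all genes by edgeR, with 5 members (and 2.2% of all genes) at an unadjusted p under 0.05 and 0 calls by DESeq2. For PSMB8-AS1 the interaction was 0.37 ± 0.33 and for ITGB2-AS1 1.03 ± 0.67 on the log2 scale, both within 2 SE of 0. No count is given here for the fit without the first combination library. Its combination group was the 1 library that stood apart, with the spread taken from the other groups alone.

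The member DESeq2 called with WM1119 was SNRK-AS1, described here after its values were seen. It had 34.1 and 45.8 counts in DMSO, 50.6 and 30.9 with VTP50469, 0 in both WM1119 libraries, and 21.1 and 0 with the combination. Against a floor of 3 counts over the 2 WM1119 libraries its estimated counts were at least 30.5-fold lower than in DMSO. The adjusted p was 0.600 by edgeR and 0.00583 by DESeq2. In these estimated counts reads may be divided with an overlapping gene (below), so the fold does not bound the level of the transcript. SNRK-AS1 is 1 of the 9 members that reached the limit only through 1 group. Without the DMSO libraries the rest averaged 17.1 counts, and without the VTP50469 libraries 16.84. Its difference from DMSO is therefore not independent of the choice of members. In every library its count and that of SNRK, the kinase gene it overlaps, added up to a whole number, for example 723 in the first DMSO library and 763 in the first WM1119 library, where SNRK held the whole of it. SNRK was at 689 and 708 counts in DMSO and 763 and 919 with WM1119.

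The same held widely among the antisense members. Of the 146 with a row for their partner, 57 had a fractional count in 1 or more libraries, and for 43 of these the sum with the partner was whole, within 0.02 counts, in all 8 libraries; 39 of the 43 overlapped the partner. JMJD1C-AS1, MBNL1-AS1, TNRC6C-AS1 and MMP24-AS1 were among them. PSMB8-AS1 was fractional and not among them, whereas ITGB2-AS1, ZNF561-AS1, FGD5-AS1 and OIP5-AS1 had whole counts throughout. Estimation that divides reads between 2 rows gives counts that are fractional alone and whole together. The labels and the methods differ on whether the library kit kept the strand, and the sources used here do not give the strand setting of the counting, so reads from a gene and its antisense transcript may not be told apart.

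**Figure D3:**
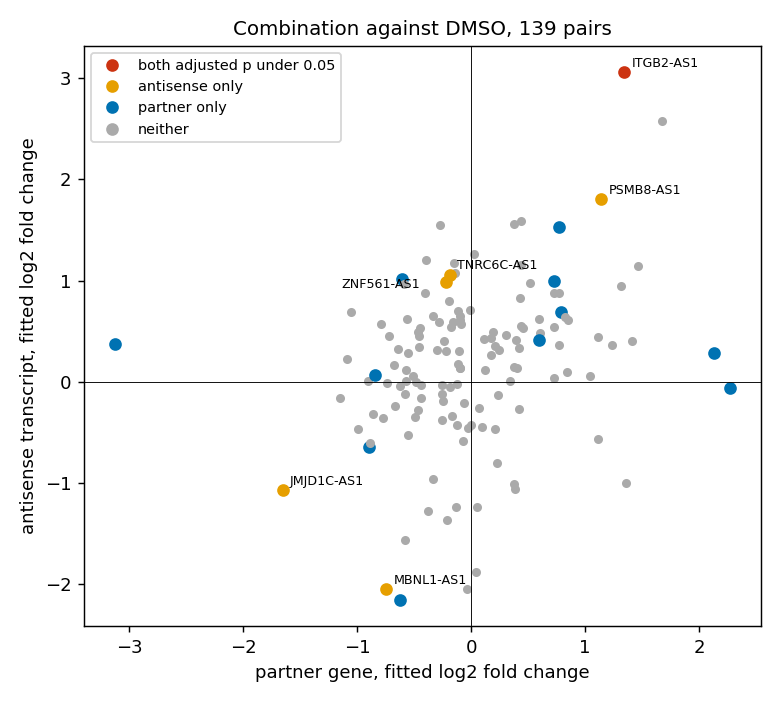
Fitted log2 fold change of the combination against DMSO for 139 pairs with both rows tested, the antisense transcript on the y axis and the gene it is named for on the x axis; colors mark which of the 2 passed an adjusted p of 0.05. ITGB2-AS1 with ITGB2 is the 1 pair with both past it, and in 5 pairs the antisense transcript passed alone.

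Over the 139 antisense pairs with both rows tested, both members of the pair moved past the threshold in 1, the antisense alone in 5 and the partner alone in 11. Of all 12401 genes, 9.29% passed it. The signs of the fitted changes were the same in 81 pairs. The median log2 change was 0.29 for the antisense transcripts and -0.11 for their partners. Across pairs, Pearson's r of the 2 changes was 0.30 and Spearman's rho 0.29, a description in which each pair shares its libraries and often its reads. The 32 head-to-head pairs had the same sign in 15 and the 101 overlapping pairs in 64, with median antisense changes of 0.46 and 0.16. The difference between the 2 arrangements was not tested.

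**Figure D4:**
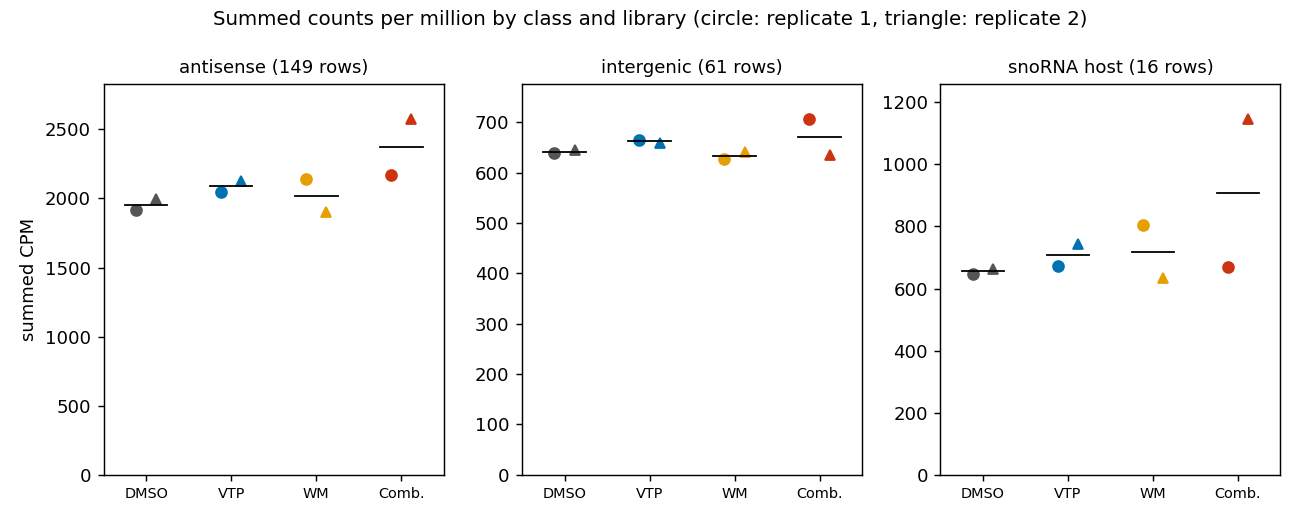
Summed CPM (y axis from 0) of the 149 antisense, 61 intergenic and 16 snoRNA host transcripts in each library, by group; circles are replicate 1, triangles replicate 2 and lines group means of 2. The second combination library is highest for antisense at 2573 CPM and for snoRNA hosts at 1146 CPM, but lies at 634 CPM for intergenic transcripts.

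Most of the reads of the members came from few of them. Summed over the class, antisense members held 1915 and 1993 CPM in DMSO, 2048 and 2129 with VTP50469, 2139 and 1902 with WM1119 and 2167 and 2573 with the combination. LRRC75A-AS1 alone, now named SNHG29 and the host of 3 snoRNA genes, held 762 and 802 CPM in DMSO, 878 and 937 with VTP50469, 940 and 737 with WM1119 and 917 and 1383 with the combination. Its log2 with the combination, 0.70 ± 0.27, did not pass the test (adjusted p = 0.145). Over its 443-base transcript its mean level of 2076 CPM per kilobase was the highest of the members, followed by SNHG16 at 235 CPM per kilobase.
FGD5-AS1 was at 104 and 99.5 CPM in DMSO and 110 and 59.7 in the combination, and OIP5-AS1, which binds the RNA-binding protein HuR, at 58.4 and 61.3 in DMSO and 78.4 and 59.6 in the combination. Both pairs of combination libraries overlapped or straddled the DMSO values, and neither transcript passed the test. Intergenic members summed to 638 and 645 CPM in DMSO and 706 and 634 in the combination. LINC00657 (NORAD, a cytoplasmic RNA that binds Pumilio proteins) was the most counted of them, at 203 and 193 CPM in DMSO, 203 and 195 with VTP50469, 152 and 184 with WM1119 and 209 and 90.8 with the combination, so that the second combination library was lowest and both WM1119 libraries also lay below DMSO. LINC00998, now the protein-coding SMIM30, was at 37.3 and 41.1 CPM in DMSO and 34.5 and 40.2 in the combination.

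The 16 snoRNA hosts summed to 649 and 663 CPM in DMSO, 671 and 742 with VTP50469, 804 and 633 with WM1119, and 671 and 1146 with the combination. The 2 combination libraries thus disagreed, and the first was within 10 CPM of the higher DMSO library. By edgeR 0 of the 16 were called with the combination, against 9.29% of all genes. At an unadjusted p under 0.05 were 3 hosts, against 30.3% of all genes. DESeq2 called 1, SNHG6. The fitted log2 change was above 0 for 14 of 16 with a median of 0.44, and without the second combination library the median was -0.12. With a correction for transcript length it was 0.23. Spearman's rho between the level of a gene relative to the DMSO mean and its transcript length, across 12015 genes, differed between libraries. It was -0.131 and -0.525 in the first and second combination libraries and -0.494 and 0.0888 in the WM1119 libraries. In the VTP50469 libraries it was 0.00904 and -0.274, and in the DMSO libraries, set against their own mean, 0.202 and -0.202. The part of transcript length in the snoRNA host levels was otherwise not tested.

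**Figure D5:**
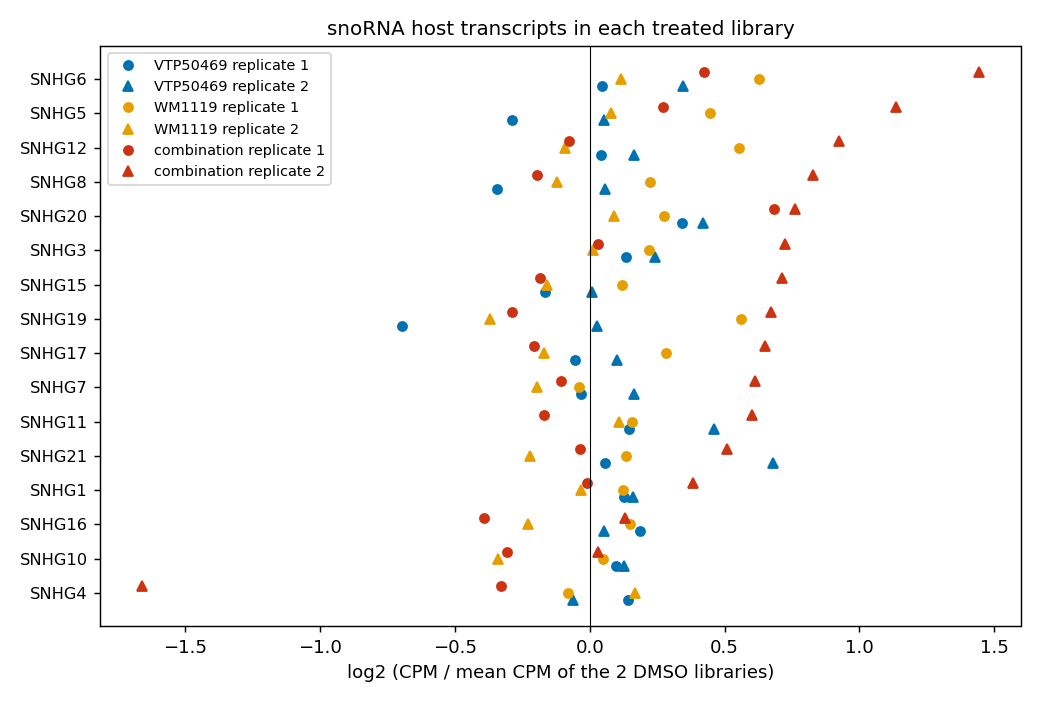
The log2 of each snoRNA host's CPM over the mean of the 2 DMSO libraries (x axis) in each treated library, with circles for replicate 1 and triangles for replicate 2. The red triangles, the second combination library, lie right of the red circles for all 16 hosts except SNHG4.

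The spread between the 2 combination libraries was seen in nearly every host. SNHG6, the most counted by CPM, was at 159 and 141 CPM in DMSO, 155 and 191 with VTP50469, 232 and 163 with WM1119 and 201.3 and 407 with the combination (log2 1.18 ± 0.40, adjusted p = 0.111). SNHG5 was at 41.5 and 39.8 in DMSO, 33.3 and 42.2 with VTP50469, 55.3 and 43.0 with WM1119 and 49.2 and 89.4 with the combination (log2 0.92 ± 0.35, adjusted p = 0.140). SNHG20 was at 4.70 and 7.73 in DMSO and 9.98 and 10.5 in the combination (log2 0.84 ± 0.27, adjusted p = 0.100), and its 2 combination values were close.
These 3 were the hosts with both combination libraries above both DMSO libraries, an order seen in 24.8% of all genes. SNHG4 went the other way: 11.3 and 13.6 CPM in DMSO, 13.7 and 11.9 with VTP50469, 11.8 and 14.0 with WM1119, and 9.92 and 3.95 with the combination (log2 -0.76 ± 0.34, adjusted p = 0.179). It was the 1 host with both combination libraries below DMSO, which held for 34.5% of all genes. SNHG4 starts 350 bases from MATR3, a nuclear matrix protein gene on the same strand, which was at 692 and 681 CPM in DMSO and 627 and 364 in the combination. SNHG3, which starts 37 bases from RCC1, was at 65.7 and 71.3 CPM in DMSO and 69.9 and 113 in the combination, whereas RCC1 was at 337 and 336 and at 270 and 209. Neither gene of either pair passed the test, and reads across the shared starts may not be told apart.

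The first 30 bases of 8 hosts are shown because hosts differ in whether they have the pyrimidine start. Capitals mark a C at the first base with the pyrimidines that follow, where the run is at least 4 long. From RefSeq (GRCh38.p14), SNHG5 is at chr6:85678704-85678733 (minus strand), SNHG12 at chr1:28581844-28581873 (minus), SNHG19 at chr16:2155329-2155358 (minus), SNHG4 at chr5:139274101-139274130 (plus), SNHG7 at chr9:136728155-136728184 (minus), SNHG1 at chr11:62855856-62855885 (minus), SNHG3 at chr1:28505943-28505972 (plus) and SNHG20 at chr17:77088643-77088672 (plus).
SNHG5: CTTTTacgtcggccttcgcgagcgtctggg
SNHG12: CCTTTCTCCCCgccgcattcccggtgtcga
SNHG19: CTTTTCggggtcgagtccgagggggaagag
SNHG4: CCCTTTCCCCTCCggcctctgccggtgctg
SNHG7: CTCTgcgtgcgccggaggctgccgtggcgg
SNHG1: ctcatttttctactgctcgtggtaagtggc
SNHG3: gattctctaactgcgcatgcttctgcgcac
SNHG20: aagttgctgacggagctacttccgcccagg
By this rule 5 of 14 hosts with a sequence (35.7%) had a pyrimidine start, against 5.45% of all 27305 starts, 2.80% of 107 antisense members and 0 of 34 intergenic members. SNHG1 begins with a run of 3 and was not counted. The longest run, 13 bases, was in SNHG4, the host with the lowest fitted change, while SNHG12, with a run of 11, had a log2 of 0.66 and SNHG5, with a run of 5, of 0.92. SNHG20, with no run at the start used, had 0.84. SNHG19 and SNHG7, the other hosts with a pyrimidine start, had 0.42 and 0.45.

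Other host genes and long non-coding RNAs were read from lists, beside 9.29% of all genes called by edgeR with the combination. Of 7 further snoRNA hosts without an SNHG name, which include GAS5, ZFAS1, the antisense members LRRC75A-AS1 and EPB41L4A-AS1 and the protein-coding TAF1D, 0 were called by edgeR in either direction with the combination, with a median log2 of 0.36. Of 17 other protein-coding snoRNA hosts tested, 0 rose and 1 fell, with a median of 0.12. The 1 was HSPA8, the constitutive heat shock protein HSC70, at 2852 and 2682 CPM in DMSO and 1933 and 1668 in the combination (log2 -0.51 ± 0.12, adjusted p = 0.0444 by edgeR). NCL, the nucleolar protein nucleolin, had a log2 of -0.44 ± 0.12 and did not pass (adjusted p = 0.067). Of 14 other long non-coding RNAs tested, 1 rose and 0 fell, with a median of 0.056. NEAT1, the scaffold of nuclear paraspeckles, was at 55.3 and 60.2 CPM in DMSO, 87.2 and 80.5 with VTP50469, 64.7 and 74.98 with WM1119, and 101 and 98.8 with the combination. It rose by a log2 of 0.91 ± 0.14 (adjusted p = 0.0129 by edgeR), and all 6 treated libraries were above DMSO.

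The study defined a Myeloid Program of genes from single-cell perturbation, which contains 4 of the members. EPHA1-AS1, also in it, was under the limit of 160 counts. TRG-AS1, in the T cell receptor gamma locus, was at 8.95 and 10.6 CPM in DMSO, 12.1 and 10.7 with VTP50469, 9.39 and 9.04 with WM1119 and 14.5 and 16.5 with the combination (log2 0.79 ± 0.20, adjusted p = 0.057), with both combination libraries the highest. SNHG6 and OIP5-AS1 are described above. CCDC144NL-AS1 was at 3.10 and 3.26 CPM in DMSO and 4.82 and 2.00 in the combination, on either side of the DMSO values. By edgeR 0 of the 4 were called, beside 9.29% of all genes. DESeq2 called 1, SNHG6, whose log2 fitted by edgeR without the second combination library was 0.44.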

How the data were processed

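Bulk RNA of MOLM-13 cells was sequenced in 8 libraries, 2 for each of 4 treatments. Reads were aligned by the authors to hg38 with STAR 2.5.1b, and the deposited table holds expected counts for each symbol, without normalization. The sources used here do not give the counting tool, its strand setting or the annotation. Members and comparison lists were chosen with earlier results of these data known.

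After rounding, 1 model of the 4 groups was fitted over 12401 genes kept by filterByExpr, using the quasi-likelihood test of edgeR 4.0.16 (R 4.3.3) and TMM factors, with DESeq2 1.42.0 as an alternative. A gene was called at an adjusted p under 0.05. The scripts were tested on simulated counts. Some marker genes are not reported here. CPM is per library total, 18092906 to 23634468 counts. GENCODE 44 gave positions, types and transcript lengths, and RefSeq gave sequences. Alternatives were other scalings and filters, a replicate block, a fit of only the groups compared, a loess offset for transcript length (span 0.4), other membership limits and leaving out each library. Named were the 6 members of each class with the lowest p in the combination, the 3 highest in CPM, members of the Myeloid Program, partners of named antisense members, and 3 genes at each side of the limit and of the lists.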

Additional observations from a re-analysis of the deposited data

How the results depend on the processing

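The share of all genes called is given only for the main edgeR fit, so the member counts below have no such share beside them. A fit without 1 library takes the spread of that group from the other groups. Members called with the combination numbered 9 higher and 3 lower. They numbered 22 and 9 with DESeq2, 16 and 12 with a transcript length offset, 3 and 1 with a replicate block and 0 and 0 when only the groups compared were fitted, and without a count filter 7 were lower. Leaving out 1 library gave 0 to 77 higher and 0 to 23 lower, with both maxima without the first combination library. With VTP50469, 0 calls became 1 with DESeq2, 1 with the length offset and 12 with only the groups compared, and 0 to 2 without 1 library. With WM1119, they became 1 with DESeq2, 1 with only the groups compared, and 0 to 2 without 1 library. Against VTP50469, 0 became 5 with DESeq2, 1 without a count filter and 2 with the length offset, and 0 to 97 without 1 library. Against WM1119, 0 became 13, 1 and 4 in the same order, and 0 to 87 without 1 library. The interaction gave 0 to 43 without 1 library. Pairs with both genes called numbered 1, and 7 with DESeq2, 3 without a count filter, 6 with the length offset, 0 with only the groups compared and 0 to 40 without 1 library. The cause of these moves was not tested. The replicate block was not used in the main fit, since correlations of same-numbered deviations ran from -0.443 to 0.173 between groups. It kept ITGB2-AS1, MBNL1-AS1, PSMB8-AS1 and TNRC6C-AS1.

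Library size scaling moved the median of all genes from 0.010 to -0.10 and that of the members from 0.32 to 0.21. In DMSO, TMM effective sizes moved the intergenic sum from 642 to 627 CPM and the snoRNA host sum from 656 to 641. Leaving out 1 library gave 1915 to 1993 CPM for antisense, 638 to 645 for intergenic and 649 to 663 for snoRNA host members in DMSO, and 2167 to 2573, 634 to 706 and 671 to 1146 in the combination. Signs of uncalled changes turned when a combination library was left out: without the second and without the first they were 0.13 and -0.55 for FGD5-AS1, 0.094 and -0.91 for LINC00657, -0.17 and 0.25 for LINC00998, -0.065 and 1.14 for SNHG12, -0.38 and 0.35 for SNHG16, and 0.61 and -0.45 for CCDC144NL-AS1. They turned with the length offset for LINC00998 (-0.42), SNHG16 (-0.35), SNHG1 (-0.14), CCDC144NL-AS1 (-0.025) and TNRC6C (0.49). With library size only, LINC00998 (-0.069) and SNHG16 (-0.11) turned, and without the first DMSO library LINC00998 (-0.016) and SNHG16 (-0.0070). No sign turned among the called members under these settings. Membership at sums of 80 or 320, RLE factors and 10 counts in every library moved no count by over 1.5 times.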

Other observations

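DLEU7-AS1, just under the membership limit, had 44 and 43 counts in DMSO, 13 and 20 with VTP50469, 17 and 13 with WM1119, and 4 and 0 with the combination, so every treated library was below both DMSO libraries. Its log2 with the combination was -4.43 ± 0.78 (adjusted p = 0.0209 by edgeR), which rests on 4 counts in the 2 combination libraries. HOXA-AS3, also under the limit, is transcribed within the HOXA cluster, whose genes KMT2A fusions keep active. It had 23.2 and 20.7 counts in DMSO, 9.78 and 6.43 with VTP50469, 23.5 and 31.3 with WM1119, and 13.5 and 20.8 with the combination. Both VTP50469 libraries were below both DMSO libraries, an order seen in 28.4% of all genes, and the second combination library was not. The log2 of HOXA-AS3 was -1.56 ± 0.60 with VTP50469 (adjusted p = 0.662 by edgeR) and -0.30 ± 0.56 with the combination (adjusted p = 0.723 by edgeR). Neither passed the test. HOTAIRM1, a myeloid transcript of the same cluster, was at 1.05 and 1.99 CPM in DMSO and 3.30 and 4.70 in the combination (log2 1.52 ± 0.43, adjusted p = 0.076 by edgeR). HOTAIRM1 was chosen for mention after its values were seen.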
